A study of Mus musculus with 16 samples.

Results

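Dermomyotome cells of chimeric mouse embryos, 423 of 37841 cells analysed, are described here. The label came from a transfer of cell types from an atlas of mouse gastrulation and early organogenesis. The members were the cells with this label that passed the authors' quality filter and were not called as doublets. WT-sorted cells with a tdTomato UMI were left out (25 Dermomyotome cells), and no expression value entered the choice beyond this and the label. The chimeras were made by injecting *Stat3* null embryonic stem cells, which are on the CD1 background and carry a nuclear tdTomato reporter, into WT CD1 blastocysts. Cells were sorted by tdTomato into null (positive, donor) and WT (negative, host), with embryos taken at embryonic day (E) 9.5, at E8.5 or at E7.5, and each library of 3′ single-cell RNA held cells of 1 stage and 1 gate. Embryos were pooled at E7.5 and E8.5, and 2 embryos were processed individually at E9.5. The 4 libraries of each genotype at E9.5 therefore stand against 2 embryos, so n counts libraries, and the p-values measure a spread between libraries that may be in part technical. Because every null cell came from the injected donor cells and every WT cell from a host, the deletion cannot be told apart from other differences between donor cells and hosts.

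The dermomyotome is the dorsal epithelium of the somite. It gives rise to skeletal muscle and to dermis of the back, and muscle precursors leave its edge for the limbs. *Pax3* and *Pax7* are paired-box factors that keep its precursors, *Meox1* and *Meox2* are homeobox factors of the somite, and *Myf5* starts the myogenic programme. The ventral part of the somite forms the sclerotome, the source of vertebrae and ribs, which is marked by *Pax1*, *Pax9* and *Sox9*. STAT3 transmits the signals of cytokine receptors that contain gp130 (*Il6st*), and *Socs3* is its feedback inhibitor.

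Dermomyotome cells were found almost wholly at the later stages. At E7.5 there were 0 among 2506 WT cells, an upper limit of 0.120%, and 2 among 2532 null cells, both in 1 library. At E8.5, 109 of 11348 cells carried the label, and at E9.5 312 of 21455. The E8.5 and E9.5 libraries held between 11 and 61 Dermomyotome cells, with 312154 to 2595242 UMIs (unique molecular identifiers, each 1 counted RNA molecule), and a Dermomyotome cell held a median of 40365. Levels are given as CPM, the UMIs of a gene per 1000000 UMIs of the Dermomyotome cells of a library. The label score, the share of the nearest atlas cells that carry the label, had a median of 0.72, and 105 of the 423 cells (24.8%) scored under 0.5. A tdTomato UMI was found in 90.9% to 100% of the null members of each E8.5 and E9.5 library. Among the WT-sorted cells with the label, 22.8% in E9.5 WT library D carried one and were left out. One cell barcode was shared by 2 libraries. *Xist*, which is transcribed from an inactive X chromosome, stood at 676 CPM in E9.5 WT library B and 587 in C, at 0 in A and D, and at 0 to 33.9 CPM in the null libraries. The libraries thus differed in *Xist*, and its part in the results was not tested.

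The label was checked against markers in WT cells at E9.5, as pooled levels over the 64 cell types with at least 20 cells. These levels describe the label and are not tested, since the label was transferred from expression. *Pax3* stood at 281.7 CPM, the highest of the 64 types. *Meox1* stood at 452 CPM, ranked 2 behind Posterior somitic tissues. *Myf5* stood at 16.1 CPM and ranked 3, behind Cardiomyocytes FHF 1 at 44.1 and Posterior somitic tissues at 20.2. *Lbx1*, a homeobox factor of migrating muscle precursors, was highest here at 46.4 CPM. The sclerotome markers were lower than in cells labelled Sclerotome, with *Pax1* at 25.3 against 149.1 CPM, *Sox9* at 37.0 against 250.3 and *Pax9* at 7.71 against 54.8. The markers were thus those of the label, although 87 of the 312 E9.5 cells (27.9%) held a UMI of *Pax1* or *Pax9*.

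**Figure D1:**
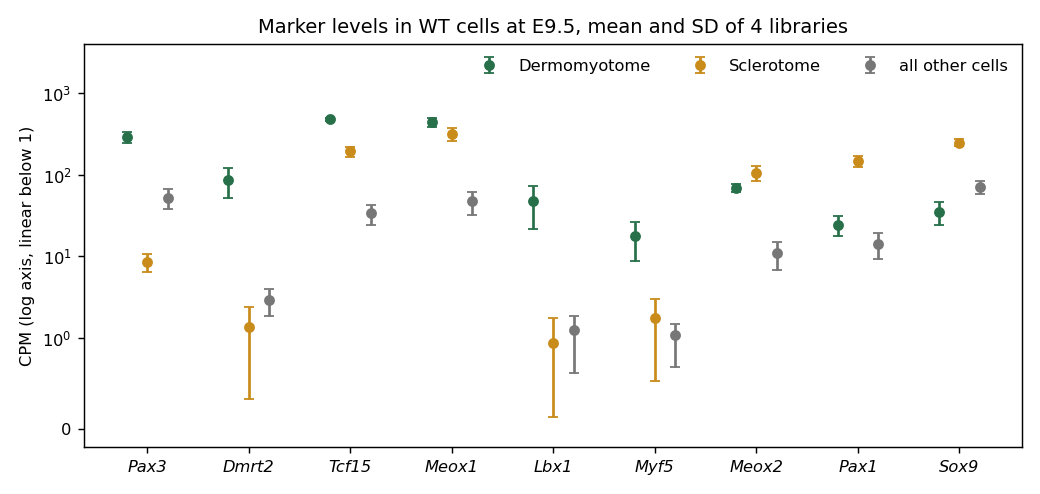
Level in CPM (log axis, linear below 1) of 9 somite genes in WT cells at E9.5, as the mean and SD of 4 libraries for Dermomyotome (green), Sclerotome (gold) and all other cells (grey). *Pax3*, *Dmrt2*, *Lbx1* and *Myf5* are highest in Dermomyotome of the 3 sets plotted, and *Meox2*, *Pax1* and *Sox9* in Sclerotome.

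The leading genes of WT Dermomyotome at E9.5, by ratio to all other WT cells among genes of at least 50 CPM, were mostly somite regulators. *Dmrt2*, a regulator of early myotome formation, was 28.5-fold higher, *Tcf15*, which is needed for the somite epithelium, 14.6-fold and the Wnt ligand *Wnt16* 14.4-fold. Posterior somitic tissues stood higher still for *Dmrt2* (97.98 against 80.1 CPM) and *Tcf15* (526 against 481 CPM). *Meox1* (9.76-fold), *Uncx* (7.56-fold), *Meox2* (6.64-fold), *Pax3* (5.45-fold) and *Foxc2* (5.04-fold), all transcription factors, followed. Others were *Plch1* (4.35-fold), the activin antagonist *Fst* (4.10-fold), the retinoic acid synthesis enzyme *Aldh1a2* (3.63-fold), the Wnt inhibitor *Nkd2* (3.62-fold), *Arg1* (3.10-fold) and *Phlda1* (2.96-fold). Of these, *Meox2* (107 against 70.9 CPM), *Foxc2* (91.2 against 67.0), *Aldh1a2* (111 against 103), *Arg1* (165 against 96.3) and *Phlda1* (176.5 against 175.3) stood higher in cells labelled Sclerotome than in Dermomyotome. Across 8897 genes, the profile of log levels was most like that of Posterior somitic tissues (r = 0.985), Sclerotome (r = 0.971) and Limb mesoderm (r = 0.961). These correlations are across genes of pooled WT libraries, which the types share.

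Marker UMIs were also counted cell by cell, without thinning. At E9.5, 284 of 312 cells held a *Pax3* UMI, 306 a *Meox1* UMI and 79 a *Myf5* UMI, and 311 held at least 1 of the 3. Of the 79 cells with *Myf5*, 78 also held *Pax3*. *Pax7* was found in 104 cells, *Lbx1* in 57 and *Myog*, which drives differentiation of muscle, in 14. *Myf5* was found in 8 of the 57 cells with *Lbx1* and in 71 of the 255 without. At E8.5, 86 of 109 cells held *Pax3*, 105 *Meox1*, 10 *Myf5*, and 3 each *Lbx1* and *Pax7*. Cells of both genotypes and of several libraries are pooled in these counts, and a cell without a UMI may still express the gene. UMIs of free RNA also enter such counts. Across the E9.5 libraries, *Pax3* UMIs were found in 2.33% to 25% of Pharyngeal endoderm cells and *Meox1* UMIs in 9.38% to 36%, so single cells are not assigned to a state here.

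The first comparison asked whether *Stat3* null cells entered the dermomyotome as often as WT cells. At E9.5 Dermomyotome made up 1.49%, 1.40%, 2.52% and 1.54% of the cells of WT libraries A to D. In null libraries A to D it made up 1.09%, 1.37%, 1.38% and 1.16%. The null libraries all lay below the WT libraries, by a small margin between WT B and null C. The mean share was 1.25% ± 0.148 (SD, n = 4) in null and 1.74% ± 0.524 (SD, n = 4) in WT, and the two-sided exact permutation test gave p = 0.0286, the smallest that 4 against 4 libraries allow. WT library C carried much of the gap. The null minus WT difference was -0.489 percentage points, and -0.229 without WT C (exact permutation p = 0.0571, the smallest that 3 against 4 allow), a value added after seeing the data. The edgeR test on cell counts of 71 cell types, which also weighs counting error and the other types, did not call the difference (log2 null over WT of -0.48, SE 0.42, adjusted p = 0.975), and it called 1.41% of the types. At E8.5 the shares were 0.904% and 1.10% in WT and 0.861% and 0.960% in null, which overlap. There the edgeR estimate was -0.15 (adjusted p = 0.986), and 0 of 68 types were called.

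Erythroid cells are one of the types in the denominator, so the share was also taken among somite derivatives alone. At E9.5 Dermomyotome made up 14.6%, 12.9%, 16.3% and 16.4% of the somite derivatives in WT libraries A to D. In the null libraries it made up 13.6%, 9.79%, 10.6% and 9.05%. Null library A lay among the WT libraries and the other null libraries lay below all of them. The means were 10.8% ± 2.01 (SD, n = 4) in null and 15.04% ± 1.67 (SD, n = 4) in WT, a difference that did not pass an exact permutation test (p = 0.0571). With Dermomyotome and Sclerotome cells alone as the denominator the means were 14.5% and 19.4% (n = 4 each, exact permutation p = 0.0857).

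**Figure D2:**
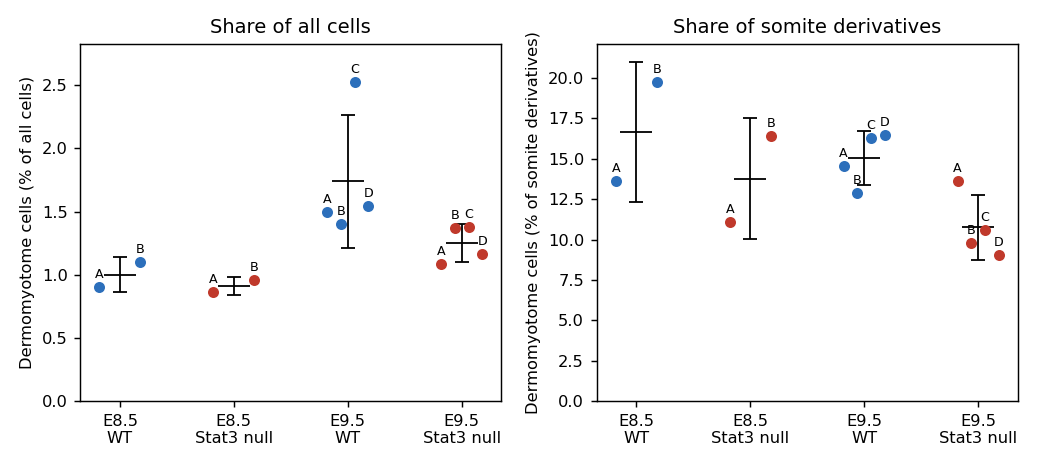
Dermomyotome cells as a percent of all cells (left) and of somite derivatives (right) in each E8.5 and E9.5 library; blue is WT, red is *Stat3* null, lines are means and bars are SD. The E9.5 null libraries sit at 1.09% to 1.38% of all cells, below the WT libraries at 1.40% to 2.52%, while null library A overlaps WT on the right.

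Position along development and cell quality passed no test between genotypes. The atlas stage to which E9.5 Dermomyotome cells mapped had a mean of 8.88 days in the null libraries against 8.84 in WT (4 libraries each, n = 4, exact permutation p = 0.229). Of all E9.5 members, 55.4% mapped to E8.75 and 2 cells to E9.5. The median mitochondrial percent of UMIs was 1.32 in null and 1.38 in WT (n = 4, exact permutation p = 0.657), and the median UMIs per cell were 56705 and 43012 (n = 4, exact permutation p = 0.114). Summed levels of 11 erythroid genes, which mark another cell type, were 12.2 to 67.0 CPM in the null and 246 to 1033 CPM in the WT Dermomyotome libraries at E9.5. Their part in the results was not tested.

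Within Dermomyotome at E9.5, few genes differed between genotypes. Of 8897 genes tested with edgeR, 7 were called (0.0787%) at an adjusted p (Benjamini-Hochberg) under 0.05 and a change over 2-fold, 2 higher (0.0225%) and 5 lower (0.0562%) in null cells. Without the fold requirement 22 genes passed (0.247%), 12 higher (0.135%) and 10 lower (0.112%). The median log2 ratio of all genes was -0.00074. In 385 genes (4.33%) the null and WT libraries did not overlap, and in all 7 called genes they did not.

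*Grb10*, an imprinted adaptor that restrains growth-factor signalling, changed most. Its level was 429, 430, 462 and 385 CPM in WT libraries A to D at E9.5 and 10.3, 14.4, 16.01 and 40.0 CPM in null libraries A to D. The highest null library stood far below the lowest WT library. The log2 null over WT was -4.55 (SE 0.28, adjusted p by edgeR = 0.00065). At E8.5 *Grb10* stood at 334 and 281 CPM in WT and at 6.7 and 189 CPM in null, so null library B lay much closer to WT than null library A. The gene lies at chr11:11930508-12038683 on the minus strand of GRCm38.

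*Cwc22*, a splicing factor, was higher in null cells. It stood at 41.3, 26.7, 37.4 and 33.7 CPM in WT libraries A to D and at 170.5, 184.4, 142.8 and 137.0 CPM in null libraries A to D at E9.5. All null libraries lay more than 3-fold above the highest WT library. The log2 null over WT was 2.19 (SE 0.12, adjusted p by edgeR = 7.4e-13). At E8.5 WT stood at 71.7 and 63.4 CPM, and null at 71.7 and 153.8, so that null library A equalled WT A to the decimal shown. *Slc38a4*, an imprinted amino acid transporter, was also higher, at 57.6 to 80.9 CPM in null against 27.6 to 38.3 in WT (log2 1.09, SE 0.14, adjusted p by edgeR = 3.1e-05).

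The other genes called were lower in null cells. *Pusl1*, a pseudouridine synthase, stood at 3.0 to 7.7 CPM in null against 20.2 to 31.2 in WT (log2 -2.35). *Akr1e1*, an aldo-keto reductase, stood at 0.6 to 3.8 against 9.4 to 22.7 CPM (log2 -2.41). *Hist1h4i*, a replication-dependent histone gene, stood at 8.7 to 10.9 against 25.7 to 53.5 CPM (log2 -1.98). It has near-identical copies, so its count is uncertain. *Slit3*, a secreted guidance cue, stood at 4.0 to 9.0 against 9.6 to 19.9 CPM (log2 -1.38, SE 0.30, adjusted p by edgeR = 0.044). The gap for *Slit3* is the smallest of these, and it lost its call without WT library C (adjusted p by edgeR = 0.166), WT D (0.241), null A (0.175), null B (0.246) or null C (0.0836). *Hist1h4i* lost it without null B (0.0528). Of the 7 genes, DESeq2 called *Cwc22*, *Slc38a4* and *Grb10*. It gave *Pusl1*, *Akr1e1*, *Hist1h4i* and *Slit3* no adjusted p, so it does not test their calls. The voom fit called all 7 except *Akr1e1* (adjusted p = 0.0639) and *Slit3* (0.201).

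**Figure D3:**
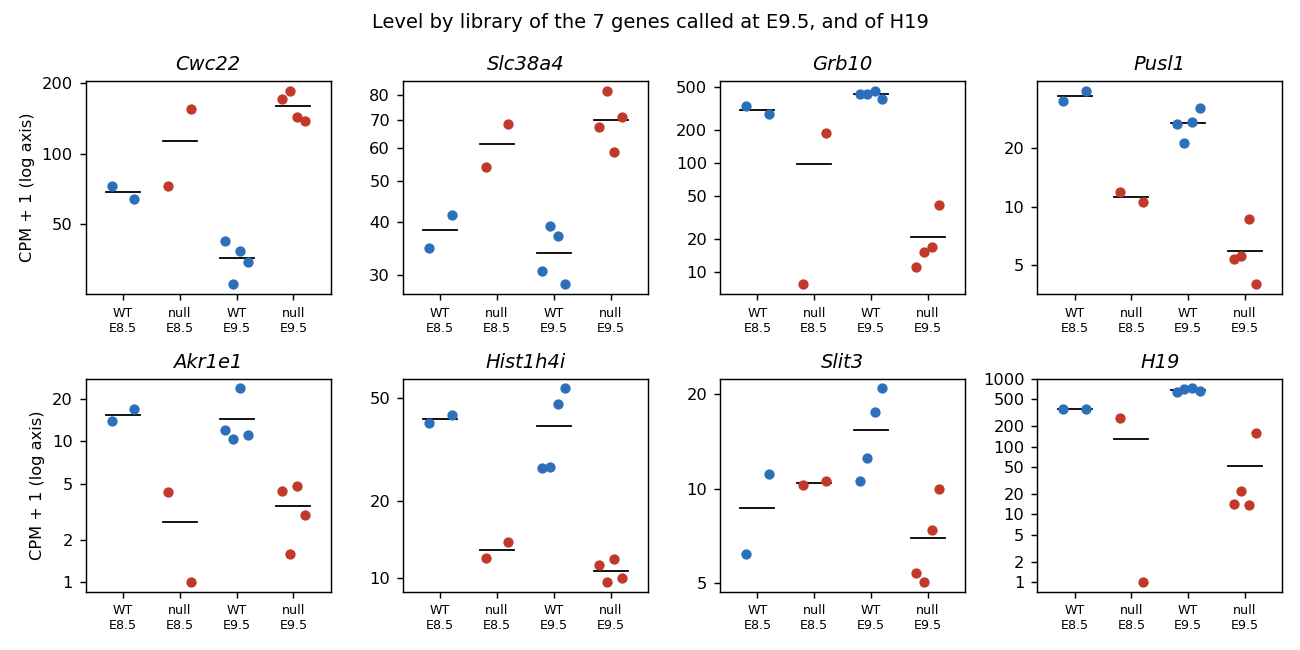
Level (CPM + 1, log axis) of the 7 genes called in E9.5 Dermomyotome and of *H19* in each library; blue points are WT, red points null libraries, and lines are means. At E9.5 no null library of the 7 genes overlaps WT, whereas 1 E8.5 null library of *Grb10* (189 CPM) lies close to WT.

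The 7 genes also differed outside Dermomyotome. All 7 passed an adjusted p under 0.05 in Sclerotome cells, where 0.871% of genes passed, and in all other cells together, where 1.19% passed; the libraries are the same ones. *Grb10* had a log2 null over WT of -5.88 in Sclerotome and -4.73 in all other cells. *Cwc22* had 2.09 and 2.13. *Slit3* had -0.63 and -0.29, and its difference between Dermomyotome and all other cells did not pass (adjusted p by edgeR = 0.062). At E8.5, 6 of the 7, all except *Slit3*, had both null libraries on the E9.5 side of both WT libraries, against 19.3% of all genes, and *Cwc22* did so by less than the decimal shown.

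Imprinted genes, which are transcribed from 1 parental copy, held 5 of the 22 genes that passed the adjusted p alone. Of 35 tested, 4 were higher in null cells (*Slc38a4*, *Igf2*, *Zdbf2*, *Impact*) and 1 lower (*Grb10*), beside 0.135% and 0.112% of all genes, and the list's median log2 ratio was -0.0076 beside -0.00074 for all genes. *Igf2*, a fetal growth factor, stood at 419.9, 462.9, 313.1 and 379.1 CPM in null libraries and at 212.1, 221.1, 221.9 and 204.0 CPM in WT (log2 0.89). The groups did not overlap. *H19*, the non-coding neighbour of *Igf2*, stood at 646 to 723 CPM in WT and at 13.2, 21.4, 12.8 and 156.1 CPM in null libraries A to D, yet did not pass (log2 -4.03, adjusted p by edgeR = 0.211). Null library D stood apart, and without it the ratio was -5.42 and *H19* was called (adjusted p by edgeR = 1.3e-20). With all libraries voom also called it (log2 -4.88, adjusted p = 1.4e-07), while DESeq2 did not. *Grb10* was also highest in that library among null.

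The genes that define the dermomyotome did not pass the test between genotypes. Of 28 regulators 25 were tested, with 0 past the threshold (beside 0.247% of all genes, so that 0 is no result about the list), a median log2 ratio of 0.03 and a smallest adjusted p by edgeR of 0.211. *Pax3* stood at 320.9, 327.2, 270.1 and 236.8 CPM in WT libraries and at 302.8, 292.4, 190.2 and 283.1 CPM in null (log2 -0.09, SE 0.15). *Meox1* stood at 411.1, 373.5, 495.9 and 482.9 CPM in WT and at 208.2, 279.1, 398.2 and 407.1 in null (log2 -0.45, SE 0.25). *Meox2* stood at 69.7 ± 8.25 CPM in WT and 49.3 ± 8.54 in null (SD, n = 4; log2 -0.47). The groups overlapped for *Pax3* and *Meox1*. The remaining log2 ratios ran from -0.65 (*Zic1*) to 0.68 (*Eya4*). *Lbx1* (0.55, SE 0.53) and *En1* (0.32, SE 0.72) were among those with a wide spread between libraries.

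The myogenic programme was at low levels in both genotypes. Of 28 genes 9 were tested, 0 passed (beside the same 0.247%, and again no result about the list), and the median was -0.16. *Myf5* stood at 23.2, 26.01, 14.6 and 6.5 CPM in WT libraries and at 18.1, 12.7, 14.1 and 8.0 CPM in null (log2 -0.25, SE 0.39). The groups overlapped. *Myod1*, a determination factor, was below 1 CPM on average in both. To compare detection at 1 depth, each cell was thinned to 10000 UMIs, which left out no cell. A *Myf5* UMI was then found in 8.06% ± 1.69 of null and 14.4% ± 6.76 of WT cells (SD, n = 4 libraries each). Null libraries ran from 5.56% to 9.09% and WT libraries from 9.84% to 24.3%, and the exact permutation p was 0.0286 and 0.171 after adjustment over the 6 genes compared. These values come from 1 random draw of UMIs per cell, and the separation did not hold beyond it. A second draw, made for the setting without null cells that lack a tdTomato UMI, gave a null minus WT difference of 1.13 in place of -6.34 percentage points (exact permutation, adjusted p = 0.971), and its WT shares moved although the WT cells were the same. The expected share over all draws, a value added after seeing the data, was 8.68% ± 2.31 in null and 12.2% ± 4.89 in WT (SD, n = 4), with overlapping libraries and an exact permutation p of 0.286 (0.429 after adjustment). Without thinning the shares were 23.98% and 28.5% (exact permutation, adjusted p = 0.8286). No difference in *Myf5* detection is therefore called. In WT Sclerotome and Pharyngeal endoderm cells, which should lack the gene, 1.27% and 0.559% held a *Myf5* UMI in the first draw (median depths before thinning 29860 and 30249 UMIs, against 42196 in Dermomyotome). None of the other 5 genes passed in the first draw, with *Lbx1* at 18.5% in null and 12.1% in WT and *Pax7* at 12.2% and 17.3%, or as an expected share, where the smallest exact permutation p was 0.0571, and 0.343 after adjustment (*Meox1*, 81.7% in null and 89.4% in WT).

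The STAT3 pathway was described next. Of 39 listed genes 21 were tested, 0 passed (beside 0.247% of all genes, so that 0 is no result about the list) and the median was 0.08. *Stat3* itself was too low to test, at 3.5, 2.9, 3.9 and 2.0 CPM in WT and 1.5, 2.9, 2.6 and 3.0 CPM in null libraries at E9.5. The groups overlapped, and the 3′ reads come from outside the deleted internal exons, so this level does not check the deletion. tdTomato, which checks the gate, stood at 215 to 259 CPM in null libraries and is 0 in WT by the choice of cells. *Socs3* stood at 5.0 to 12.8 CPM in null and 6.1 to 12.6 in WT (log2 -0.02, SE 0.30). *Il6st* stood at 22.7, 28.2, 27.4 and 23.9 CPM in WT and at 18.1, 17.3, 16.6 and 17.0 CPM in null, groups that did not overlap, but it did not pass over all genes (log2 -0.54, SE 0.17, adjusted p by edgeR = 0.352). Ligands and several receptors were near 0, with *Lif* at 0 UMIs.

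The sequence before the start of *Socs3* is shown because it holds the palindrome that STAT proteins bind. It is the 250 bases upstream of the RefSeq start at chr11:117969367-117969616 (GRCm38.p6, minus strand), 5′ to 3′, with the match to TTCNNNGAA in capitals, 154 bases before the start.
Socs3: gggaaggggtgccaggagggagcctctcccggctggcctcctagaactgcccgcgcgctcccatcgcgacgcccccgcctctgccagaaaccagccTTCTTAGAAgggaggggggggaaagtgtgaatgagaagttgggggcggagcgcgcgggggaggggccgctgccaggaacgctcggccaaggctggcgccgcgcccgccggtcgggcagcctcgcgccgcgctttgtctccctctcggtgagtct
This motif, searched on both strands, was found in 2 of 34 listed genes with a promoter sequence (5.88%, *Bcl6* and *Socs3*) and in 8.13% of the 27025 genes with one. None of the 6 called genes with a sequence held it (0 of 6). The windows are short and a match is a description only.

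The stage comparison asked how Dermomyotome cells at E9.5 differed from those at E8.5. The label was transferred by expression from an atlas with stages, which can limit the differences seen. Of the E8.5 members 76.1% mapped to atlas stage E8.75, as did 55.4% of the E9.5 members. The 8 E9.5 libraries were set against E8.5 WT A, WT B and null A, and E8.5 null B, with 11 cells, did not enter the fit. Null and WT libraries of a stage were sorted from the same chimeras, and the fit had no block for embryo or pool. Its p-values thus measure a spread between libraries that are not independent embryos. Stage cannot be told apart from other differences between the embryos taken. Of 9250 genes 244 were called (2.64%), 193 higher (2.09%) and 51 lower (0.551%) at E9.5. With the adjusted p alone 845 passed (9.14%), 377 higher (4.08%) and 468 lower (5.06%). With voom 73 genes were called higher and 70 lower. Some genes were so low at E8.5 that they entered the test through their E9.5 levels alone, which sets their direction. The split into higher and lower is therefore not read as a result. The count of called genes depends on the few E8.5 libraries. It was 119 without E8.5 null A and 125 without E8.5 WT B, and 144 with WT libraries only, a setting chosen after seeing the data.

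*Pax3* rose with stage, from 187.6, 167.4 and 118.9 CPM in the 3 tested E8.5 libraries to 190.2 to 327.2 CPM at E9.5 (log2 0.72, SE 0.16, adjusted p by edgeR = 0.016). The lowest E9.5 library lay just above the highest E8.5 library. *Pax7* stood at 3.9, 0 and 1.7 CPM at E8.5 and at 10.0 to 30.3 CPM at E9.5 (log2 3.31, SE 0.59, adjusted p by edgeR = 0.0014). Of 26 dermomyotome regulators tested, 6 rose (23.1%) and 2 fell (7.69%) at an adjusted p under 0.05, beside 4.08% and 5.06% of all genes, and the median was 0.20 beside 0.02. Besides *Pax3* and *Pax7* these were the hepatocyte growth factor receptor *Met* (2.01), which migrating muscle precursors need, *Eya4* (2.66), *Gas1* (0.69) and *Zic1* (2.83), while *Foxc1* (-0.63) and *Ebf2* (-0.79) fell. Of these genes, 7 did not pass when a single E8.5 library was left out. *Pax3* did not pass without E8.5 WT B (adjusted p by edgeR = 0.0726) or null A (0.143), nor did *Foxc1*, *Ebf2*, *Met*, *Eya4* and *Zic1* without either of these (*Foxc1* also without E9.5 WT A, WT C, WT D or null B), and *Gas1* did not without null A (0.0558). *Eya4* rested on 3 UMIs at E8.5, a ratio of 7.43 with a 95% interval of 2.48 to 36.6 for counting error. With voom *Met* (adjusted p = 0.0531) and *Eya4* (0.114) did not pass either. *Pax7* passed with any 1 library left out. However, *Pax7* and *Eya4* were so low at E8.5 that they entered the test through their E9.5 levels alone. Their direction is thus no finding, and the share of regulators that rose is not read as a result about the list.

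*Lbx1* stood at 10.4, 1.1 and 0 CPM at E8.5 and at 20.7 to 93.6 CPM at E9.5, without passing (log2 3.93, SE 1.14, adjusted p by edgeR = 0.075). It passed with DESeq2 (adjusted p = 0.00035) and, by edgeR, without E9.5 WT D (0.048). However, *Lbx1* entered the test through its E9.5 level alone, so its direction is no finding. *En1*, a factor of the central dermomyotome, had 0 UMIs in the tested E8.5 libraries and 573 at E9.5, at least 36.7-fold higher against a floor of 3 UMIs over the E8.5 libraries (1.06 CPM), and did not pass. It entered the test through its E9.5 level alone, so that direction is no finding. At E9.5 null library D stood at 1.0 CPM and WT A at 72.5. Without null D the adjusted p by edgeR was 0.0893, whereas DESeq2 called the gene with all libraries (adjusted p = 8.2e-05). *Meox1* (-0.33), *Myf5* (0.51) and *Tcf15* (-0.40) did not pass either. *Myf5* was uneven at E8.5, at 31.3 CPM in WT A and 2.3 and 1.7 in the other tested libraries. In the myogenic list 1 of 13 tested genes rose (7.69%, beside 4.08% of all genes), the laminin receptor subunit *Itga6* (0.71), which did not pass without E8.5 WT B (adjusted p by edgeR = 0.168) or null A (0.0812), and the median was 0.51.

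Hox genes, whose paralogue number follows position along the body axis, were counted by paralogue group. Of 32 tested, 10 rose (beside 4.08% of all genes), 7 of them past the fold requirement, and 1 fell, with a median of 0.75 that did not move when genes at 0 were set to their bound. The 10 and the 7 include *Hoxa10*, *Hoxd10*, *Hoxc9* and *Hoxd9*, which entered the test through their E9.5 levels alone. These counts are therefore not read as a result about the list. Among paralogues 1 to 8, 5 of 23 rose and the median was 0.38. Among the 4 genes of group 9, 3 rose and the median was 3.83. Those that rose include *Hoxc9* and *Hoxd9*, so these values are given as a description. *Hoxc9* stood at 6.5, 0 and 5.9 CPM at E8.5 and at 57.8 to 101.3 CPM at E9.5 (log2 4.01, SE 0.38). It was so low at E8.5 that it entered the test through its E9.5 level alone, so its direction is no finding. *Hoxa9* stood at 6.5, 1.1 and 7.6 CPM and at 60.7 to 81.6 CPM (log2 3.64, SE 0.25). The stages did not overlap for either gene, in WT or null.

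All 5 tested genes of groups 10 and 11 had 0 UMIs at E8.5, so they passed the filter on low counts through E9.5 alone, and their direction was set by that choice. At E9.5 *Hoxa10* was at least 26.01-fold higher, *Hoxa11* 29.5-fold, *Hoxc10* 35.1-fold, *Hoxd10* 7.37-fold and *Hoxd11* 7.11-fold against the same floor, and 2 of them, *Hoxa10* and *Hoxd10*, had an adjusted p under 0.05, which is given as a description. Both lost their calls without E8.5 WT B or null A, *Hoxa10* also without E8.5 WT A, E9.5 WT B, WT C, null B or null C, and *Hoxd10* also with voom (adjusted p = 0.0517) and with WT libraries only (adjusted p by edgeR = 0.127). Without at least 1 E8.5 library *Hoxa2*, *Hoxb3*, *Hoxb7*, *Hoxc5* and *Hoxd8* no longer had an adjusted p under 0.05, and of these the last 2 had been past the fold requirement. *Hoxb7* passed that requirement only without E8.5 null A or with WT libraries only, while *Hoxa9*, *Hoxc9* and *Hoxd9* passed with any 1 library left out. *Hoxd9* had 1 UMI at E8.5 and 319 at E9.5, a ratio of 61.3 with a 95% exact binomial interval of 10.9 to 2429 for counting error. It too entered the test through its E9.5 level alone, so its direction is no finding. Between genotypes 0 of 31 Hox genes passed, beside 0.247% of all genes, which is no result about them.

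**Figure D4:**
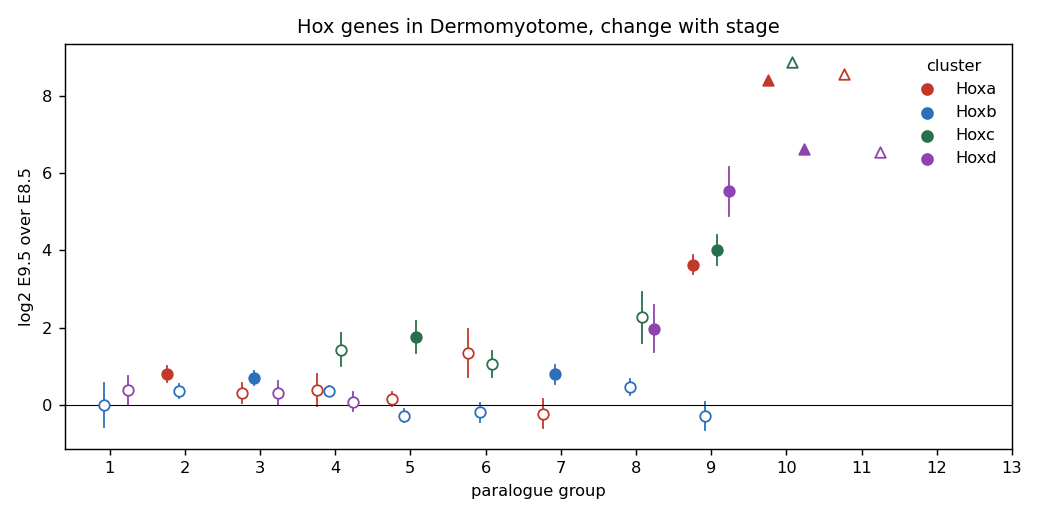
Log2 of E9.5 over E8.5 level of 31 of the 32 tested Hox genes in Dermomyotome by paralogue group; colours are clusters, bars are SE, filled symbols passed an adjusted p under 0.05, and triangles mark genes with 0 UMIs at E8.5, whose fitted value depends on the prior count. Group 9 genes other than the 1 in the Hoxb cluster are plotted between 3.64 and 5.53. Of these, *Hoxc9* and *Hoxd9* entered the test through their E9.5 levels alone, so their height is no finding.

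Many genes of a list of glycolysis and hypoxia response fell. Of 27 tested, 15 fell (55.6%, beside 5.06% of all genes), 1 rose and 11 did not pass at an adjusted p under 0.05, and the median was -0.53 beside 0.02 for all genes. *Bnip3* (-0.75), a mitophagy receptor, and *Higd1a* (-0.75), a mitochondrial protein, are hypoxia-response members among the 15, and the others are glucose transporters and glycolytic enzymes. Summed over the list, the level was 13858 to 16082 CPM at E8.5 and 10576 to 12755 CPM at E9.5. *Slc2a1*, the main glucose transporter, stood at 89.9, 81.5 and 73.3 CPM at E8.5 and at 32.0 to 51.5 CPM at E9.5 (log2 -1.07, SE 0.14, adjusted p by edgeR = 2.1e-06). *Ldha*, which makes lactate, stood at 2496, 2913 and 2933 CPM and at 1611 to 2071 CPM (log2 -0.78). The stages did not overlap for either gene. *Tpi1* (-0.72), *Pgk1* (-0.67), *Aldoa* (-0.68), *Eno1* (-0.56) and *Gapdh* (-0.48) fell by less. The falling genes named here passed an adjusted p under 0.05 with any 1 library left out, while some others of the 15 did not. *Ldhb*, the subunit that favours pyruvate, rose from 17.7 to 26.02 CPM to 48.0 to 109.2 CPM (log2 1.67), and lost its call without any 1 of the E8.5 libraries. Between genotypes 0 of 25 passed, where 0.247% of all genes did, which is no result about the list.

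Promoters of 2 listed genes that fell are shown, with the core of the hypoxia response element. The 250 bases upstream of the RefSeq start (GRCm38.p6, plus strand) are given 5′ to 3′ for *Pgk1* (chrX:106186850-106187099) and *Slc2a1* (chr4:119108495-119108744), with ACGTG on either strand in capitals.
Pgk1: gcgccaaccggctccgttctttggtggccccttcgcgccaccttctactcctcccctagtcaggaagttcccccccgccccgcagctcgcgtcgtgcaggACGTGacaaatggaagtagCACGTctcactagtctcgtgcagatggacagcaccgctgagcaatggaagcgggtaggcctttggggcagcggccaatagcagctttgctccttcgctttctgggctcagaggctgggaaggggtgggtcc
Slc2a1: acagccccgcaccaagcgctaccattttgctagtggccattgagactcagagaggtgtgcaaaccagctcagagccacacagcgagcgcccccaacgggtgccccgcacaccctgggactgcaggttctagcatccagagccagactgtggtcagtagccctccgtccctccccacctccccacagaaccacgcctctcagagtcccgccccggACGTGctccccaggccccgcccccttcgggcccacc
*Pgk1* held 2 matches, 150 and 131 bases before the start, and *Slc2a1* 1, 36 bases before it. ACGTG was found in 17 of 28 listed genes (60.7%), against 26.6% of the genes tested between stages and 18.5% of all genes. The list names genes of the hypoxia response, so a higher share follows from how it was drawn up and is no result. The motif was about as frequent among the listed genes that fell (8 of 14, 57.1%) as among those tested that did not (7 of 12, 58.3%).

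Among imprinted genes, 11 of 37 tested rose with stage (29.7%, beside 4.08% of all genes) and 0 fell (beside 5.06%), with a median of 0.34. *Dlk1*, a Notch-related growth regulator, stood at 57.3, 49.8 and 69.1 CPM at E8.5 and at 296.0 to 480.6 CPM at E9.5 (log2 2.68, SE 0.14). *Meg3*, the maternal non-coding RNA of the same locus, stood at 267 to 390 CPM and at 788 to 1145 CPM (log2 1.45, SE 0.11). The stages did not overlap for either. *Peg10* (1.17), *Peg3* (0.77) and *Igf2* (0.55) rose as well, though *Igf2* did not pass without E8.5 null A (adjusted p by edgeR = 0.157). *Dlk1*, *Meg3*, *Peg10* and *Peg3* passed with any 1 library left out, while some others of the 11 did not.

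The other genes picked by size among those called included the cholesterol synthesis enzymes *Hmgcs1* (1.37) and *Msmo1* (1.34), the actin-binding peptide gene *Tmsb4x* (1.36) and *Wnt16* (3.14). Of these, *Msmo1*, *Tmsb4x* and *Wnt16* lost their calls without E8.5 WT B or null A, and *Wnt16* also without E8.5 WT A. *Nr6a1*, a nuclear receptor of trunk development, fell from 122.5, 107.5 and 89.4 CPM to 19.1 to 33.0 CPM (log2 -2.05, SE 0.14). *Lin28a*, an inhibitor of let-7 processing, fell from 132.9, 103.0 and 80.1 CPM to 35.9 to 73.0 CPM (log2 -1.06). Neither gene's stages overlapped. *Prtg* (-1.52), *Itih5* (-1.48), *Prelid2* (-1.14), *Rbpms* (-1.12), *Emb* (-1.07) and *Foxd1* (-1.03) fell too. All of these stayed under an adjusted p of 0.05 with any 1 library left out, but *Lin28a* fell short of the fold requirement without E8.5 WT A (-0.91), *Rbpms* without E8.5 WT B (-0.98), and *Foxd1* without E8.5 null A, E9.5 WT B or E9.5 null A and with WT libraries only (-0.997 to -0.990).

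In each of the signalling lists 2 or 3 genes passed the adjusted p between stages, a level that 9.14% of all genes reached. In the Wnt list 3 of 27 tested genes passed (11.1%), where the inhibitors *Nkd2* (2.39) and *Notum* rose and the receptor *Fzd2* (-0.36) fell. *Notum* rested on 2 UMIs at E8.5, a ratio of 10.5 with a 95% interval of 2.83 to 87.6. In the FGF list 3 of 18 rose (16.7%), the inhibitors *Spry2* (1.43), *Dusp6* (0.66) and *Il17rd* (1.19), with a median of 0.56. In the BMP list 3 of 18 passed (16.7%), where *Bmpr1b* (2.25) and *Smad7* (1.06) rose and *Id1* (-0.55) fell. In the Notch list 2 of 16 passed (12.5%), where *Hes6* (1.34) rose and *Hes1* (-0.54) fell. In the Hedgehog list 2 of 10 passed (20%), where *Ptch1*, a receptor and target, fell (-0.95) and *Gas1*, a co-receptor, rose. In the retinoic acid list 3 of 12 passed (25%), among them the reductase gene *Dhrs3* (1.122) and the binding protein gene *Crabp2* (0.90), which rose. In the STAT3 list *Socs3* rose from 1.3, 1.1 and 4.2 CPM to 5.0 to 12.8 CPM (log2 1.74, adjusted p by edgeR = 0.024) and *Ccnd1* (-0.49) fell, 2 of 25 tested (8%). The lists are small, and nothing is read from these shares. *Notum* and *Socs3* were so low at E8.5 that they entered the test through their E9.5 levels alone, so their direction is no finding. *Hes6*, *Ptch1* and *Smad7* stayed under an adjusted p of 0.05 with any 1 library left out. The others named here did not pass without 1 or more E8.5 libraries. These were WT B or null A for *Spry2* (adjusted p by edgeR = 0.216 and 0.218), *Dusp6*, *Il17rd*, *Fzd2*, *Bmpr1b* and *Hes1*, any of the 3 for *Nkd2* and *Ccnd1*, WT B for *Notum*, WT A for *Id1*, null A for *Crabp2*, WT A or null A for *Dhrs3*, and WT A (0.101) or WT B (0.158) for *Socs3*. *Socs3* and *Bmpr1b* also did not pass with DESeq2 (0.0737 and 0.0702) or voom (0.184 and 0.248), and *Spry2*, *Il17rd*, *Notum* and *Dhrs3* did not with voom. *Spry2* also did not pass without E9.5 WT A, WT B or WT C.

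In the G2 and M phase list 5 of 52 fell (9.62%, beside 5.06% of all genes) and 0 rose, with a median of -0.07, and in the S phase list 1 of 38 fell (2.63%, *Nasp*, -0.34), shares from which nothing is read. In the extracellular matrix list 5 of 21 passed (23.8%, beside 9.14%), where *Col1a2* (0.97), *Nid1* (1.62) and *Sparc* (0.57) rose while fibronectin (*Fn1*, -0.62) and versican (*Vcan*, -0.71) fell. In the sclerotome list 3 of 12 tested genes fell (25%, beside 5.06%), among them *Uncx* (-0.76) and *Pdgfra* (-0.90). *Col1a2*, *Fn1* and *Pdgfra* passed with any 1 library left out. *Nid1*, *Sparc* and *Vcan* did not pass without E8.5 WT B (adjusted p by edgeR = 0.223, 0.354 and 0.069) or null A (0.248, 0.118 and 0.0706). *Nid1* and *Sparc* also did not pass with DESeq2 (0.0718 and 0.0737) or voom (0.134 and 0.0704). *Nid1* also failed without E9.5 WT B, WT C, null A or null B, *Sparc* without E9.5 WT A, and *Uncx* without E8.5 WT A (0.153), E8.5 null A (0.179), E9.5 WT B or any E9.5 null library.

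**Figure D5:**
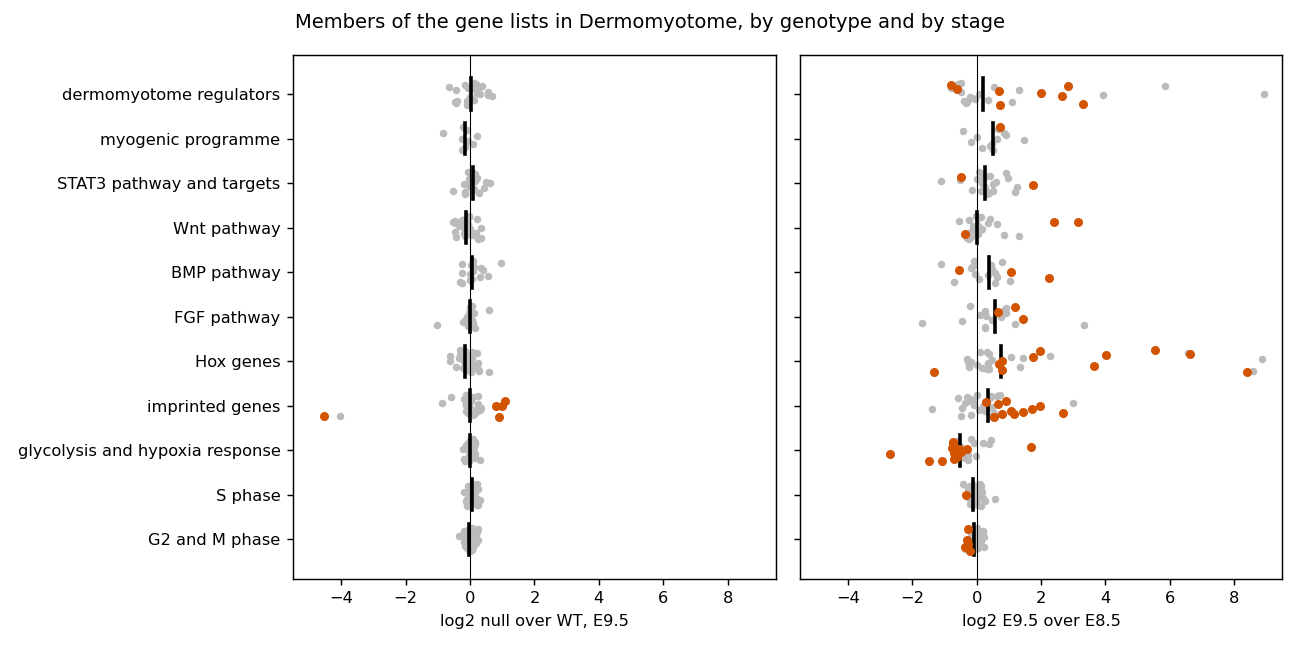
Log2 ratio of each tested gene of 11 lists in Dermomyotome, null over WT at E9.5 (left) and E9.5 over E8.5 (right); points are genes, orange passed an adjusted p under 0.05, and black bars are list medians. On the left the orange points are 5 imprinted genes, and on the right the list of glycolysis and hypoxia response lies mostly below 0. Genes with 0 UMIs at E8.5, some of them in the Hox list, are plotted on the right at values that depend on the prior count. The side on which the Hox list lies is therefore not read as a result.

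The last comparison asked whether the genotype effect in Dermomyotome differed from that in other cells. Against Sclerotome 1 of 10789 genes passed (0.00927%) by edgeR and 0 by DESeq2. Before adjustment 496 (4.60%) lay under 0.05 by edgeR, about the share that this threshold passes where no gene differs. No gene passed the edgeR test without WT library D, null A or null C (0 in each). Against all other cells 20 of 14655 genes passed (0.136%), 15 more positive and 5 more negative in Dermomyotome, by edgeR, and 0 by DESeq2. The split was not stable, at 10 and 9 without WT library A, 31 and 25 without WT C and 23 and 21 without null A.

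Among the genes with the smallest p, 6 are named here, and none of them passed between genotypes within Dermomyotome. *Blvrb*, a biliverdin reductase, stood at 6.2 to 8.1 CPM in WT and 6.0 to 10.8 CPM in null Dermomyotome (log2 0.11), against -1.71 in all other cells. *Cpox*, a haem synthesis enzyme, had 0.05 against -1.04, *Alad*, another, 0.07 against -0.49, *Gpx1*, a peroxidase, 0.09 against -0.32, and the mitochondrial iron importer *Slc25a37* -0.22 against -1.41. *Nefm*, a neurofilament, had -0.26 against 0.47. With DESeq2 the adjusted p was 0.0853 for *Blvrb*, *Cpox*, *Gpx1* and *Alad*, 0.654 for *Slc25a37* and 0.734 for *Nefm*. The summed erythroid genes stood at 10645 CPM in all other WT cells, where the labelled types include erythroid cells. The paper reports that null cells seemed scarce in the erythroid lineage of E9.5 chimeras. A ratio in all other cells, which are pooled over types, can hold a change in the mix of types as well as in expression. These were not told apart or tested.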

How the data were processed

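Single-cell 3′ RNA libraries (10x Genomics) were analysed from tdTomato-sorted cells of chimeras, 16 libraries in all. The authors mapped reads to mm10 with Cell Ranger and deposited raw UMI counts per gene and cell. They kept cells with more than 10000 UMIs and called doublets with scds. A deposited table of cells holds the mitochondrial percent of each cell and the label score, a fraction of nearest atlas cells. The library names match no sample title, so groups rest on each cell's stage and gate, and libraries were lettered in the order of their names. The number of per-sample columns left unmatched was 0.

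UMI counts were summed per library over Dermomyotome cells and tested with edgeR 4.0.16 (quasi-likelihood) in R 4.3.3 (filterByExpr, TMM, libraries with more than 15 cells). The method was tested on simulated data. Of 29453 genes, 8172 were left out (predicted, mitochondrial, ribosomal, haemoglobin and Y-linked genes, *Xist*, *Tsix*, tdTomato). Calls required an adjusted p below 0.05 and an absolute log2 fold change over 1, and an interaction at the adjusted p alone. Shares were compared with two-sided exact permutation tests over 70 arrangements of 4 against 4 libraries. With 2 against 2 libraries the smallest p is 0.333, and genotype at E8.5 was described without a test of expression. Limits of a count of 0 (3 counts) and intervals cover counting error only. DESeq2 1.42.0, limma 3.58.1 (voom), other filters and leaving out each library were alternatives.

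Named genes were the markers, the members of the regulator, myogenic and STAT3 lists, called genes with non-overlapping libraries and at least 10 CPM (genotype) or the largest changes at 50 CPM or more (stage), the 15 leading genes, called members of the other lists and the 6 smallest p of the interactions. *Igf2*, *H19* and other genes outside these rules were singled out after their values were seen. Some genes that these rules name are not reported here. The members and lists were chosen with earlier results of these data known.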

Additional observations from a re-analysis of the deposited data

Results flagged for a closer look

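In groups of 4 libraries, 102 groups of values were checked for a library apart from the others, and 6 were found (5.88%), about the rate at which this check marks groups by chance. The share of Dermomyotome among all cells was 2.52% in E9.5 WT library C, against 1.40% to 1.54% in the other WT libraries. The mean mapped atlas stage was 8.81 days in E9.5 WT library D, against 8.84 days in the others. *Akr1e1* stood at 22.7 CPM in E9.5 WT C (9.39 to 11.1 in the others), *H19* at 156.1 CPM in E9.5 null D (12.8 to 21.4) and *Pim1* at 124.2 CPM in E9.5 WT B (69.7 to 77.4). After thinning, 5.56% of the cells of E9.5 null D held a *Myf5* UMI, against 8.51% to 9.09% in the other null libraries, values of 1 random draw.

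Genotype effects that differed between Dermomyotome and all other cells pooled, by the interaction test of edgeR, were also marked. Against all other cells the log2 differences were 1.82 for *Blvrb*, 1.09 for *Cpox*, 0.40 for *Gpx1*, 0.55 for *Alad*, 1.17 for *Slc25a37* and -0.85 for *Nefm*.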

How the results depend on the processing

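No called result reversed under any alternative among the genes followed one by one. These were 39 between genotypes, 88 between stages and 6 against all other cells, and the other called genes were not checked for direction. At E9.5, 4 genes were called between genotypes with DESeq2, 26 without the filter on low counts and 22 without a fold threshold, and 6 to 12 when 1 library was left out (12 without null D). Between stages, 143 were called with voom (73 higher and 70 lower), 144 with WT libraries only (chosen after seeing the data), 845 without a fold threshold and 119 to 249 when 1 library was left out. The interaction with Sclerotome gave 0 genes with DESeq2, 3 without the filter and 0 to 2 without 1 library, and that with all other cells 0, 36 and 13 to 56. Taken over all cells, the difference in share was -0.489 percentage points (exact permutation p = 0.0286) in place of that over somite derivatives, which ran from -5.24 to -3.71 when 1 library was left out. Over all cells it ran from -0.602 to -0.229, where the exact permutation p could not go below 0.0571. Leaving out 1 library gave -0.59 to -0.30 for the log2 abundance at E9.5, -0.27 to 0.079 at E8.5 (which was not called and crossed 0), 0.0205 to 0.0722 days for the mapped stage, -0.127 to 0.0508 for the mitochondrial percent and -7.87 to -3.04 percentage points for *Myf5* detection. That difference, -6.34 in 1 random draw, was 1.13 in a second draw without null cells that lack a tdTomato UMI, -4.48 unthinned, and -3.53 as the expected share over all draws (-3.40 without those null cells), the last 2 added after seeing the data. The causes were not tested. No paired analysis was possible because the library names carry no replicate number of the sample titles. Alternatives for expression between genotypes at E8.5 were not run, since expression was not tested there. Of 312 values of genes named between genotypes with 1 library left out, 301 kept their side of the threshold, and of 964 between stages 880. Direction was compared only where a gene was called. Among genes not called it could change, as for *Pax3* between genotypes (log2 -0.174 to 0.031). The 11 to 61 cells per library limit what low genes can show.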
